A study of Mus musculus with 6 samples.

Results

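The contactins and the contactin-associated proteins (Caspr proteins) were examined in astrocytes of the upper and deep layers of the mouse neocortex. Members were the rows of the deposited expression table whose symbol was Cntn1 to Cntn6 or Cntnap1 to Cntnap4, and all 10 were found, each as a single row among 43383. The members were chosen by gene family, but also with their RPKM in ULAs and DLAs already known, so the layer values are given as a description. GFP-positive cells were collected by fluorescence-activated cell sorting (FACS) from the dissected somatosensory area of Aldh1l1-eGFP mice (4-week-old males), in which the enhanced GFP marks cells that use the Aldh1l1 astrocyte promoter. Upper-layer astrocytes (ULAs) came from layers II–IV and deep-layer astrocytes (DLAs) from layers V and VI of the same 3 brains, which gave 6 libraries. Every library carries the same transgene, layer I and the corpus callosum had been discarded, and neither GFP-negative cells nor other ages were sequenced. Levels are given as RPKM, read numbers divided by mRNA length and library depth, so levels of different genes can be set side by side, and runs of 3 values follow the order of brains 1, 2 and 3.

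Contactins are immunoglobulin superfamily proteins that a lipid anchor holds on the outer face of the cell membrane. Caspr proteins are transmembrane relatives of the neurexins that bind contactins in the same membrane. They are best known from myelinated axons, where Cntn1 with Cntnap1 (Caspr) forms the junction between axon and myelin beside the node of Ranvier, and Cntn2 with Cntnap2 (Caspr2) gathers potassium channels in the next domain. Cntn3 to Cntn6 are known mainly from neurons, where they guide neurites and synapse formation.

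Among the 10 members, Cntn1 was by far the most abundant on the RPKM scale and its layers overlapped. Cntnap2 was the member whose layers lay farthest apart on the log2(RPKM + 1) scale. Cntnap2 was 10.7 ± 0.947 times as high in ULAs as in DLAs (SD, n = 3 brains). A ratio cannot be given for Cntn3, which was listed at 0 in all DLA libraries. Cntn5 was at an intermediate level in every library with overlapping layers, and the other 7 members stayed under 0.3 RPKM throughout. The plot of all members by library shows this order.

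**Figure D1:**
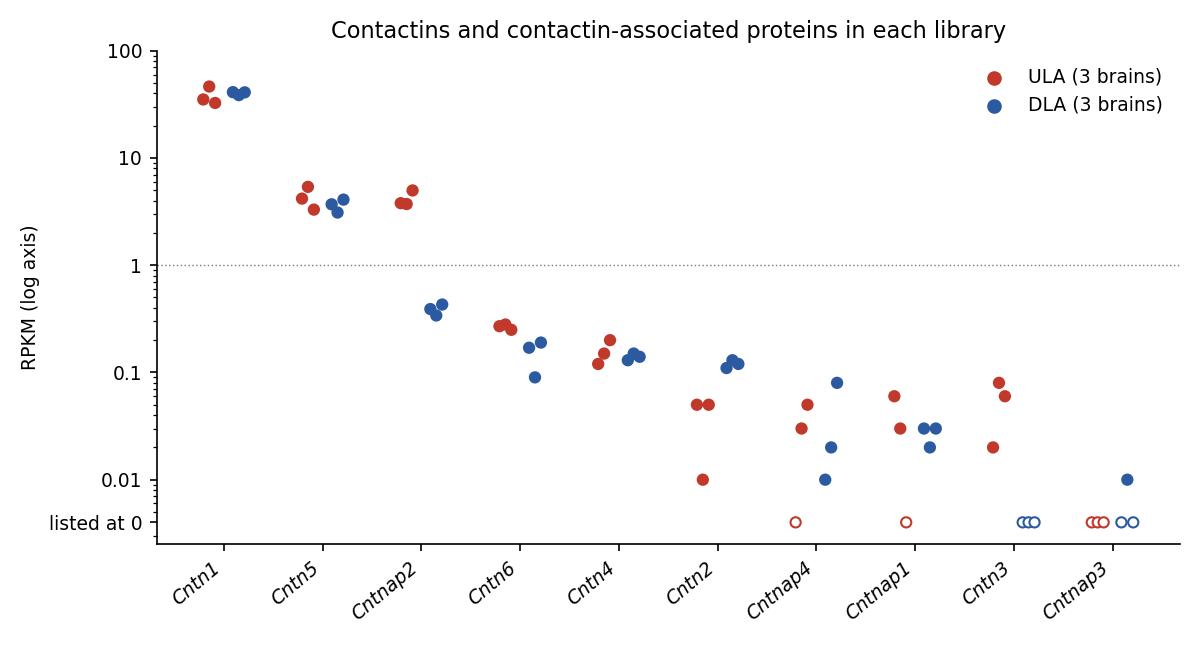
RPKM (log axis) of the 10 members in each of the 6 libraries, ordered by mean RPKM, with ULA libraries in red, DLA libraries in blue, values listed at 0 as open points at the foot, and a dotted line at 1 RPKM. Cntn1 sits between 32.6 and 46.4 RPKM, Cntnap2 separates into ULA values of 3.72 to 4.98 and DLA values of 0.34 to 0.43, and 7 members lie below the dotted line in every library.

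The promoter sequences of Cntnap2 and Cntn1 are shown because these genes carry the main contrast, with and without a difference between layers. The windows are the 250 bases before each RefSeq start site on the mouse build GRCm38.p6, read 5′ to 3′ on the strand of the gene. Capitals mark matches on either strand to the TATA box TATAAA, the GC box GGGCGG, the core of the Lef/Tcf motif CTTTGA, or the E-box CANNTG.

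RefSeq gave 2 starts for Cntnap2, at chr6:45059811-45060060 and chr6:47244146-47244395 on the plus strand, 2.18 Mb apart, and 3 for Cntn1, of which the first window is chr15:92050915-92051164 on the plus strand.
Cntnap2, first start: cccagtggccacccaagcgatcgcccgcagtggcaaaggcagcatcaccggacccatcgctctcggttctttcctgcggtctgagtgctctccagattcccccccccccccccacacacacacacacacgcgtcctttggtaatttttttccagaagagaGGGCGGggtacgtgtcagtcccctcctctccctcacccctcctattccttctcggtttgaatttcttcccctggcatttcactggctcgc
Cntnap2, second start: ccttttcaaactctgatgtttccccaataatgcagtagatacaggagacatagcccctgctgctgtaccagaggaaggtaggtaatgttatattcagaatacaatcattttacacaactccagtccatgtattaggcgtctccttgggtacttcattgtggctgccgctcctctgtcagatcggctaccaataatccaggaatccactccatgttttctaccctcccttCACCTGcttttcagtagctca
Cntn1, first start: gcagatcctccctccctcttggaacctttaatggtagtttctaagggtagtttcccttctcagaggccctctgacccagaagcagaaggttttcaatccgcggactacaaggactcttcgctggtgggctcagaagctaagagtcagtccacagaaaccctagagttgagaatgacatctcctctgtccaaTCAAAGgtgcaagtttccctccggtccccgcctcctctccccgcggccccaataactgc

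The window at the first Cntnap2 start had a GC content of 59.6% and 13 CpG dinucleotides, and held 1 GC box, 90 bases before the start. At the second start the GC content was 45.2% with 3 CpG dinucleotides, and the only match was 1 E-box, 21 bases before the start. The Cntn1 window had a GC content of 53.6% with 7 CpG dinucleotides and 1 Lef/Tcf core, 59 bases before the start. Over 32851 windows of the same length the median GC content was 52.4% and the median number of CpG dinucleotides was 6. Windows were found for 8 of the 10 members, 13 windows in all, and none for Cntnap1 and Cntnap4. The GC box was in 2 of these 13 windows and in 32.7% of all windows, the TATA box in 1 and in 12.4%, the Lef/Tcf core in 3 and in 13.8%, and the E-box in 8 and in 66.2%. A match is a run of letters and was not tested for binding.

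Cntnap2 encodes Caspr2, the adhesion protein that gathers potassium channels along axons. ULAs held 3.79, 3.72 and 4.98 RPKM of its mRNA, against 0.39, 0.34 and 0.43 RPKM in DLAs. Every ULA library was high and every DLA library low, with no overlap. The upper/deep ratios were 9.72, 10.9 and 11.6 in brains 1, 2 and 3. These values rested on 662 to 951 reads in each ULA library and on 48 to 93 in each DLA library. The mean level was 4.16 ± 0.708 RPKM in ULAs and 0.387 ± 0.0451 RPKM in DLAs (SD, n = 3 each).

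On the log2(RPKM + 1) scale the layer difference of Cntnap2 was 1.89 with an SE of 0.16, the second highest among 13999 rows with a mean of at least 1 RPKM, after the secreted BMP antagonist Chrdl1. With a pseudocount of 0.1 in place of 1 it was 3.12, since its DLA level is under 1 RPKM. As a ratio of RPKM it was the highest of the 13931 such rows with values above 0 in all libraries, and the next was Colq, the collagen tail of acetylcholinesterase, at 7.10. Cntnap2 was among the rows ranked through its ULA values, since its DLA mean was under the minimum. The row joins 2 RefSeq transcripts, NM_001004357 and NM_025771, so reads of the long and the short form cannot be told apart. In the mm9 coordinates of the table it lies on chromosome 6 from 45010060 to 47251370 on the plus strand, with 25 exons and an mRNA of 7139 bases. By its genomic span of 2.24 Mb it was second among 22829 RefSeq rows. There were 7 other rows within its span, none of which shared exon bases with it, and the highest of them reached 0.49 RPKM in any library.

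Cntn1, the contactin of the junction between axon and myelin and a known ligand of Notch and of the phosphatase Ptprz1, reached 35.13, 46.38 and 32.60 RPKM in ULAs. In DLAs it reached 41.11, 38.58 and 40.94 RPKM. The layers overlapped, and Cntn1 was higher in DLAs in 2 of 3 brains and higher in ULAs in brain 2. Its means were 38.0 ± 7.34 RPKM in ULAs and 40.2 ± 1.41 RPKM in DLAs (SD, n = 3 each), so the ULA libraries spread more than the DLA libraries. The log2 difference was -0.09 with an SE of 0.13. The sign of that difference is not settled, since it was 0.02 without brain 3 and 0.01 after quantile normalization. By mean RPKM it ranked 2088 among the 13999 rows, and each library held 4690 to 7485 of its reads. Cntn1 lies on chromosome 15 from 91881596 to 92172398 on the plus strand (mm9), with 26 exons.

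Cntn5, a neuronal contactin known from the auditory and visual systems, reached 4.18, 5.38 and 3.30 RPKM in ULAs. In DLAs it reached 3.70, 3.10 and 4.09 RPKM. ULAs were higher in 2 of 3 brains and the layers overlapped, with means of 4.29 ± 1.04 RPKM in ULAs and 3.63 ± 0.499 RPKM in DLAs (SD, n = 3 each). The log2 difference was 0.18 with an SE of 0.18, and it was -0.05 without brain 2, whose ULA library held the highest value. The gene lies on chromosome 9 from 9660891 to 10904775 on the minus strand (mm9), with 25 exons, and its libraries held 261 to 589 reads. In ULAs Cntn5 and Cntnap2 were therefore at overlapping levels, while in DLAs every Cntn5 value was above every Cntnap2 value.

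**Figure D2:**
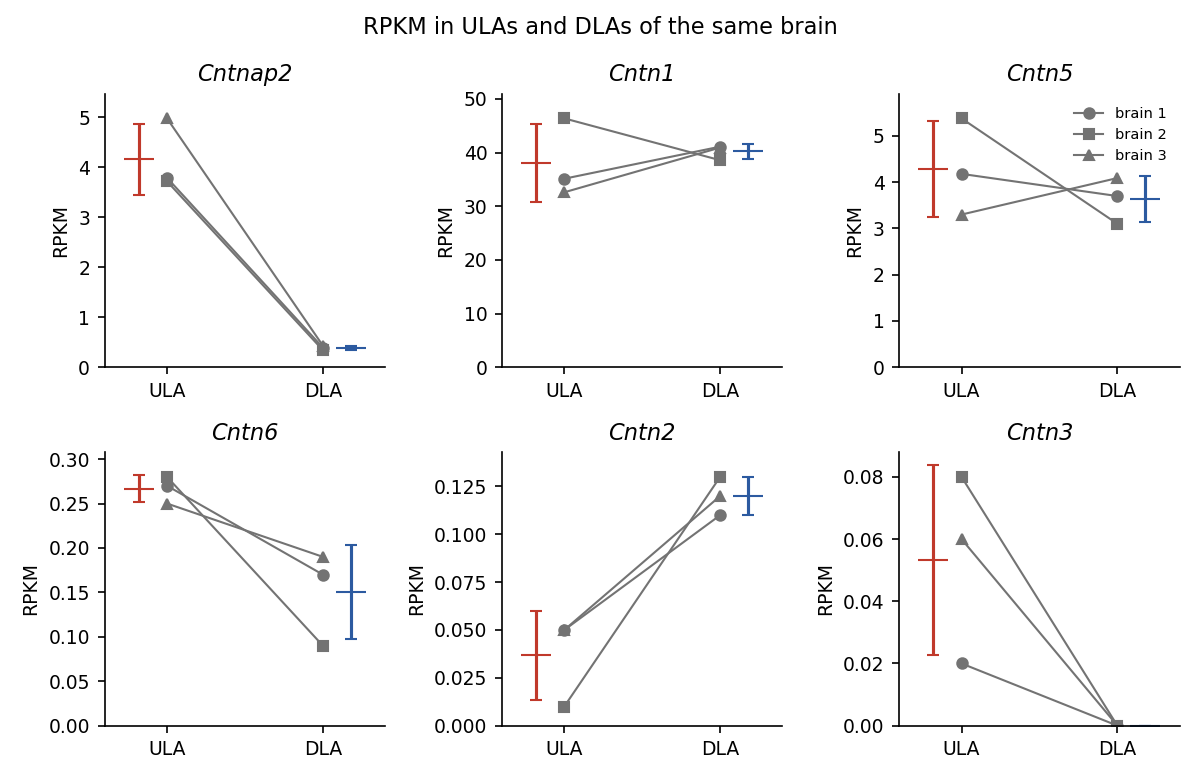
RPKM in ULAs and DLAs for 6 members, each panel with its own axis from 0, with lines joining the libraries of a brain and bars giving the mean ± SD of each layer (n = 3). The lines of Cntnap2, Cntn6 and Cntn3 run down from ULAs to DLAs in all 3 brains, those of Cntn2 run up in all 3, and those of Cntn1 and Cntn5 cross.

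The remaining contactins were near the limit of detection. Cntn6, which binds Notch1 and Chl1, reached 0.27, 0.28 and 0.25 RPKM in ULAs, against 0.17, 0.09 and 0.19 RPKM in DLAs. All ULA values were above all DLA values, on 24 to 26 reads per ULA library against 7 to 21 per DLA library. Cntn4, known for its binding to App in growing axons, was at 0.12, 0.15 and 0.20 RPKM in ULAs and at 0.13, 0.15 and 0.14 RPKM in DLAs, and the layers overlapped. Cntn3 was at 0.02, 0.08 and 0.06 RPKM in ULAs, on 3 to 12 reads per library, and was listed at 0 in all 3 DLA libraries, where truncation allows at most 1 read in each. Cntn2, the contactin that partners Caspr2 in the axon, went the other way, with 0.05, 0.01 and 0.05 RPKM in ULAs and 0.11, 0.13 and 0.12 RPKM in DLAs. Its layers did not overlap either, with 3 to 15 reads per ULA library and 25 to 36 per DLA library. In bulk samples such as these, fewer cells that express a gene and less of its RNA per cell cannot be told apart.

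The other Caspr genes among the members were at or below 0.08 RPKM in every library. Cntnap1, the partner of Cntn1 in the axon, was at 0.06, 0.03 and 0 RPKM in ULAs and at 0.03, 0.02 and 0.03 RPKM in DLAs, on 0 to 9 reads per library. Cntnap4, known from inhibitory and dopaminergic nerve endings, was at 0, 0.03 and 0.05 RPKM in ULAs and at 0.01, 0.02 and 0.08 RPKM in DLAs, on 0 to 13 reads per library. Cntnap3 was listed at 0 in 5 libraries and at 0.01 RPKM in the DLAs of brain 2, so no library held more than 1 of its reads. At these depths a layer difference in Cntnap1, Cntnap3 or Cntnap4 was not detectable. The axonal partners of the expressed members were thus at very low levels in these cells, Cntnap1 beside Cntn1 and Cntn2 beside Cntnap2.

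In the order of mean RPKM over the 6 libraries, Cntn1 at 39.1 was followed by Cntn5 at 3.96, Cntnap2 at 2.28, Cntn6 at 0.208, Cntn4 at 0.148 and Cntn2 at 0.0783. Cntnap4 at 0.0317, Cntnap1 at 0.0283, Cntn3 at 0.0267 and Cntnap3 at 0.00167 came last. Only 2 neighbouring steps had ranges that did not overlap over the libraries, from Cntn1 to Cntn5 and from Cntnap2 to Cntn6. Of the 10 members, 4 lie on chromosome 6, and in mm9 Cntn3 (102113300 to 102414661, minus strand), Cntn6 (104443038 to 104813399, plus strand) and Cntn4 (105627739 to 106649299, plus strand) follow each other there. Cntn2 lies on chromosome 1 (134406002 to 134439517, minus strand), Cntnap1 on chromosome 11 (101037431 to 101052034, plus strand), Cntnap3 on chromosome 13 (64838899 to 65005196, minus strand) and Cntnap4 on chromosome 8 (115093943 to 115406607, plus strand). No other row shared exon bases with any of the 10 members.

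The rows with a mean of at least 1 RPKM were fitted together with limma, with brain and layer as terms and Benjamini-Hochberg adjustment, and a row passed at an adjusted p under 0.05. Of the 10 members 3 were tested and 7 were under the minimum. Cntnap2 met the minimum through its ULA values alone, since its DLA mean was 0.387 RPKM. Of the 3, 1 passed as higher in ULAs, Cntnap2, and 0 as higher in DLAs. Of all tested rows 1.63% passed in either direction, 0.714% as higher in ULAs and 0.914% as higher in DLAs. At an unadjusted p under 0.05, 0 of the 3 were higher in DLAs. Of the 13999 tested rows, 790 were higher in ULAs and 1505 in DLAs at that threshold. Without the minimum on RPKM neither Cntnap2 nor any other of 27963 rows passed, although 2799 rows had an unadjusted p under 0.05. Among these were Cntnap2, higher in ULAs (limma, unadjusted p = 0.000131), and Cntn2, higher in DLAs (limma, unadjusted p = 0.0263). Over all 10 members the layers did not overlap for 4, with ULAs above for Cntnap2, Cntn3 and Cntn6 and DLAs above for Cntn2, beside 11.2% of the rows with any signal in either direction, 5.27% with ULAs above and 5.94% with DLAs above. Nothing is read from these counts, because the members were proposed with the same contrast in view.

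The known ligands and receptors of contactins and Caspr proteins were at higher levels than most members. Of 16 such genes, 15 were tested, 1 rose in ULAs and 1 in DLAs, and 13 did not pass, beside 0.714% and 0.914% of all rows. At an unadjusted p under 0.05, 6 were higher in ULAs and 1 in DLAs, beside 790 and 1505 of the 13999 tested rows. The median log2 difference of the 15 was 0.19, against -0.03 over all tested rows, with 11 above 0 and 4 below. Aplp2, a relative of the amyloid precursor protein, was the gene that was higher in ULAs. It was at 138.73, 115.06 and 113.80 RPKM in ULAs and at 97.57, 80.45 and 87.12 RPKM in DLAs, with every ULA library above every DLA library. The log2 difference of Aplp2 was 0.47 with an SE of 0.09 (limma, adjusted p = 0.0405), and it passed in 4 of 11 alternatives, whose adjusted p ran from 0.00546 to 0.381.

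Gpr37, a receptor of myelinating cells that binds Caspr2, was higher in DLAs, with 14.91, 18.18 and 20.20 RPKM in ULAs and 42.01, 53.02 and 29.40 RPKM in DLAs. It fell by 1.15 on the log2 scale from DLAs to ULAs, with an SE of 0.17 (limma, adjusted p = 0.011), and passed in 9 of 11 alternatives (adjusted p from 6.24e-11 to 0.4). Gpr37 was higher in DLAs in all 3 brains, and Cntnap2 was higher in ULAs in all 3. Ptprz1, the phosphatase on glia that binds Cntn1, was at 260.30, 268.73 and 206.33 RPKM in ULAs and at 184.77, 151.20 and 185.23 RPKM in DLAs. Its layers did not overlap, but at a log2 difference of 0.49 with an SE of 0.12 it did not pass (limma, adjusted p = 0.0932; 0.000279 to 0.455 over the alternatives). Aplp1 had the highest level of the list, 619 ± 54.4 RPKM in ULAs and 626 ± 74.8 RPKM in DLAs (SD, n = 3 each), with a log2 difference of -0.01 (SE 0.11, limma adjusted p = 0.968).

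**Figure D3:**
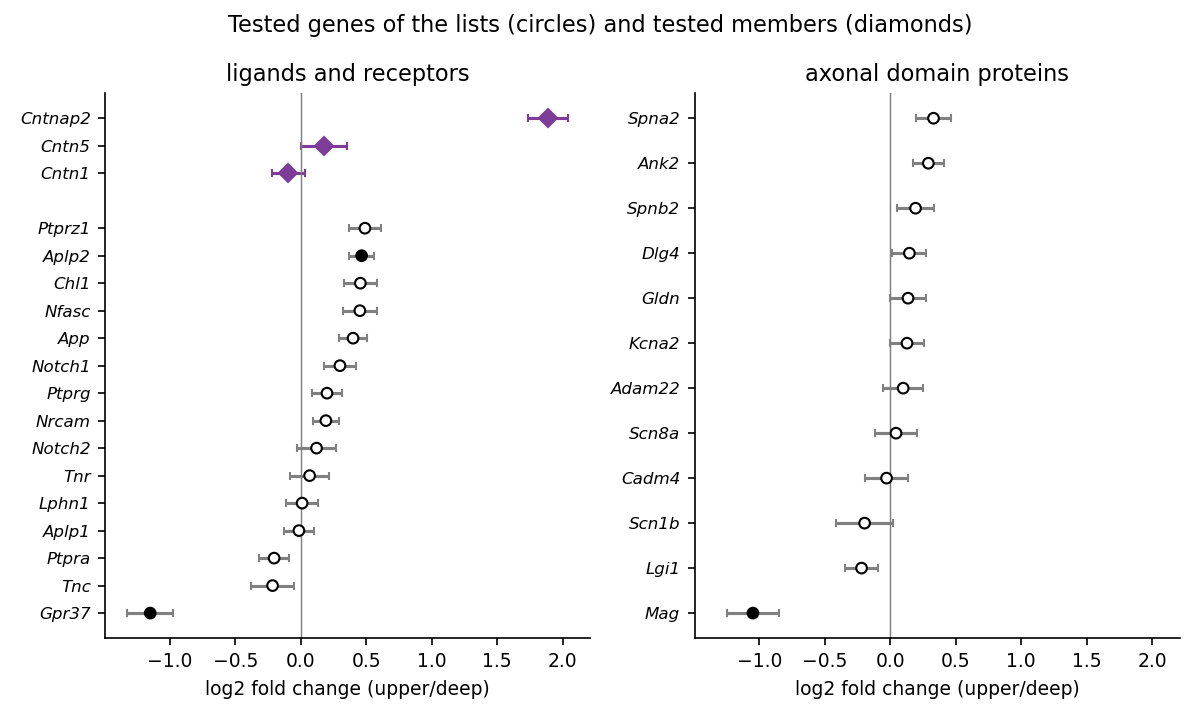
Log2 fold change (upper/deep) on the log2(RPKM + 1) scale with its SE for the tested genes of the ligand and receptor list (15 circles, left) and of the axonal domain list (12 circles, right), filled where the adjusted p was under 0.05, and for the 3 tested members (diamonds). Cntnap2 at 1.89 lies beyond all listed genes, and the filled circles are Aplp2, Gpr37 and Mag.

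Proteins of the node of Ranvier and its neighbouring domains, other than contactins and Caspr proteins, mostly did not pass in either direction. Of 20 such genes 12 were tested, and 0 rose in ULAs and 1 in DLAs by limma, beside 0.714% and 0.914% of all rows. The median log2 difference was 0.11, against -0.03 over all tested rows. At an unadjusted p under 0.05, 2 were higher in ULAs and 1 in DLAs, beside 790 and 1505 of the 13999 tested rows. The gene that passed was Mag, a myelin protein of oligodendrocytes that is also in the oligodendrocyte list, at 1.07, 1.66 and 5.66 RPKM in ULAs and 3.73, 6.62 and 8.01 RPKM in DLAs. Mag fell by 1.05 on the log2 scale from DLAs to ULAs (SE 0.20, limma adjusted p = 0.0287) and passed in 4 of 10 alternatives, whose adjusted p ran from 4.46e-06 to 0.449. The most abundant genes of the list were Ank2, a membrane scaffold, Gldn, a ligand of the nodal protein neurofascin, and Dlg4, a synaptic scaffold. Their log2 differences were 0.29, 0.14 and 0.15, with SEs of 0.12, 0.14 and 0.13, and none passed (limma, adjusted p = 0.267, 0.671 and 0.616).

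The labelled cell type was checked against its markers, since several members are best known from neurons and myelinated axons. The 8 astrocyte markers summed to 11153 to 12051 RPKM in ULAs and 10496 to 11249 RPKM in DLAs, led by Aldoc. By limma 0 of them passed in either direction. With an unadjusted p under 0.05, 2 were higher in ULAs and 0 in DLAs, beside 790 and 1505 of the 13999 tested rows. The neuron list (12 genes) summed to 8.01, 8.53 and 8.42 RPKM in ULAs and 7.26, 8.72 and 6.15 RPKM in DLAs, so the layers overlapped. Of these 12, 11 were under a mean of 1 RPKM, and Snap25, the highest, was at 4.70, 4.91 and 4.99 RPKM in ULAs and 4.31, 4.94 and 3.47 RPKM in DLAs. Snap25 thus made up most of the sum in every library, and the low markers did not all follow it. Tubb3, a neuronal tubulin, was at 0.20, 0.38 and 0.42 RPKM in ULAs and 0.17, 0.08 and 0.09 RPKM in DLAs. Rbfox3 (NeuN) was at 0.40, 0.29 and 0.25 RPKM in ULAs and 0.15, 0.23 and 0.07 RPKM in DLAs, so both were higher in ULAs in all 3 brains without overlap, as Cntnap2 was. Higher in DLAs in all 3 brains were Slc17a7, a glutamate transporter of synaptic vesicles, at 0.48, 0.30 and 0.49 RPKM in ULAs and 0.57, 0.60 and 0.61 RPKM in DLAs, and Gad1, an enzyme of GABA synthesis, at 0.18, 0.10 and 0.08 RPKM in ULAs and 0.25, 0.17 and 0.10 RPKM in DLAs. The layers of Slc17a7 did not overlap either, while those of Gad1 did. These 4 markers were chosen after their values were seen. Cntnap2 was above 11 of the 12 neuron markers in every ULA library and above 7 to 9 of them in the DLA libraries. Cntn1 was above all 12 in every library, and it exceeded the sum of the list. The part of neurons in the Cntnap2 difference was not tested beyond these values.

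The oligodendrocyte list moved with the layer. By limma 9 of its 11 tested genes were higher in DLAs and 0 in ULAs, beside 128 and 100 of the 13999 tested rows. With an unadjusted p under 0.05 these numbers were 11 and 0, beside 1505 and 790. The 12 genes of this list summed to 113, 114 and 216 RPKM in ULAs and to 218, 253 and 338 RPKM in DLAs. Cntn2, Gpr37 and Mag were likewise higher in the DLAs of each brain, and the part of oligodendrocytes in their values was not tested. The oligodendrocyte precursor list summed to 8.86 to 13.5 RPKM in ULAs and 9.99 to 14.5 RPKM in DLAs, nearly all of it Cacng4. The microglia list, led by C1qb, summed to 1.76 to 2.09 RPKM in ULAs and 1.24 to 1.86 RPKM in DLAs, and the endothelial list, led by Cldn5, to 0.69 to 1.12 and 0.38 to 3.26 RPKM.

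**Figure D4:**
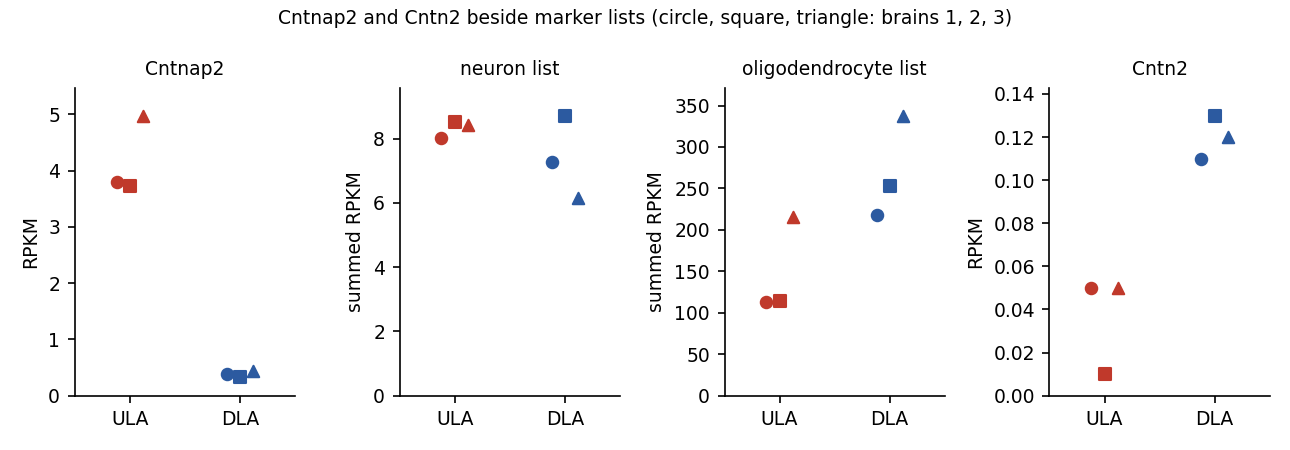
RPKM of Cntnap2 and Cntn2 (outer panels) and summed RPKM of the neuron and oligodendrocyte lists (12 genes each, inner panels) in each library, with ULAs in red, DLAs in blue and brains 1, 2 and 3 as circle, square and triangle. The neuron sums lie between 6.15 and 8.72 in both layers, whereas the oligodendrocyte sums reach 216 in ULAs and run from 218 to 338 in DLAs.

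The rows whose pattern over the 6 libraries was most like that of the most abundant contactin and the most abundant Caspr gene of the 10 members were found by Pearson's r of log2(RPKM + 1), among rows with a mean of at least 5 RPKM. The 6 values share libraries and brains, and r is given as a description. For Cntn1, compared with 8910 rows, they were Mettl16 (r = 0.989), Nbn (0.977), Got2 (0.972), E130114P18Rik (0.967) and 4933407K13Rik (0.965), each with its highest value in the ULAs of brain 2. For Cntnap2, compared with 8911 rows, they were 0610040J01Rik (r = 0.989), Chrdl1 (0.987), BC057079 (0.985), Cnr1, the cannabinoid receptor CB1 (0.983), and Tspan6 (0.982). Each of these was higher in all ULA libraries than in any DLA library, and Chrdl1 was at 96.35, 80.32 and 91.84 RPKM in ULAs and 18.68, 17.05 and 24.48 RPKM in DLAs.

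Cntnap2 and Cntn5 are among the longest genes of the genome, and rows with long genomic spans were looked at for that reason, after the values were seen and without a test. Of the tested RefSeq rows, 35 spanned at least 1 Mb. Cntnap2 and Cntn5, which prompted the look, are counted among these 35 rows. The median log2 difference of the 35 was 0.13, against -0.02 over 11475 tested RefSeq rows, and 29 of them (82.9%) were above 0, against 45.4%. By limma 6 passed as higher in ULAs, namely Cntnap2, Dcc, Rbfox1, Rbms3, Cdh13 and Immp2l, and 1, Nkain2, as higher in DLAs. Of all tested rows 0.714% and 0.914% passed in these directions. Dcc, a netrin receptor, differed by 1.47 (SE 0.15) on the log2 scale, Rbfox1, a splicing regulator, by 1.13 (SE 0.14), and Nkain2 by -0.98 (SE 0.14). Dmd, the row with the longest span, differed by -0.03 (SE 0.12).

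**Figure D5:**
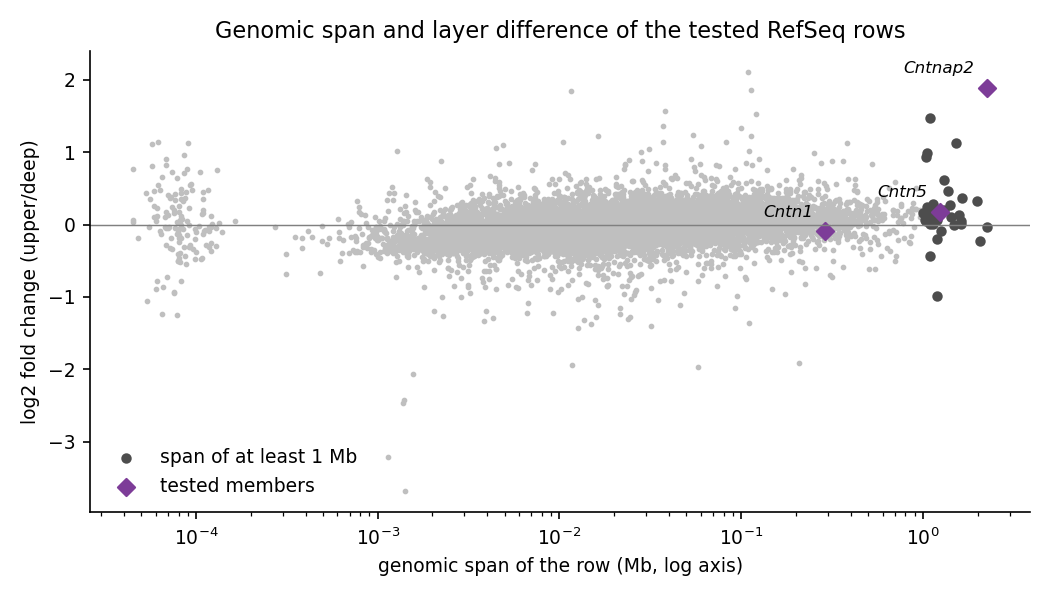
Log2 fold change (upper/deep) on the log2(RPKM + 1) scale against genomic span in Mb (log axis) for the 11475 tested RefSeq rows, with rows of at least 1 Mb in dark grey and the 3 tested members as diamonds. Most dark points lie above 0, Cntnap2 is the highest of them at 1.89, and Cntn1 and Cntn5 lie near 0.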

How the data were processed

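RNA from FACS-sorted GFP-positive cells was reverse transcribed (SMART-Seq v4), turned into Nextera XT libraries and read as single reads of 36 bases. The submitters' processing notes name CASAVA 1.8.2, bcl2fastq 1.8.4 and the build mm9, and the aligner and counting program are not given in the sources used here. The authors deposited RPKM values for 43383 rows, each scaled to the mRNA length (the summed exons) and truncated to 2 decimals. Whether reads were counted by strand was not stated. From the steps of the values in rows of up to 500 bases, ULA libraries had depths of 24.4 to 26.7 M reads and DLA libraries of 19.7 to 29.6 M. Reads per member were worked back from these depths and give precision only.

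Rows with a mean of at least 1 RPKM over the 6 libraries (13999) were fitted on log2(RPKM + 1) with limma 3.58.1 in R 4.3.3 (eBayes with a trend, brain and layer as terms, 2-sided, Benjamini-Hochberg over all rows, threshold 0.05). A fold on this scale understates the change of low genes. The replicate number was taken as the brain, as in the paired comparison of the study, and libraries of the same number deviated together (r = 0.42, 0.33 and 0.34, against -0.20 to -0.16 between numbers). The libraries are from separate animals within a layer. Alternatives left out the brain term, each brain, the minimum or the trend, used a pseudocount of 0.1, a minimum of 5 RPKM, median centring or quantile normalization, or corrected for mRNA length.

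The members and the gene lists were chosen with earlier results of these data known. By rule, named genes were all members, every listed ligand, receptor or axonal domain gene that passed, and the 3 most abundant of each of these lists. The rule also took the 5 rows most like the most abundant contactin and Caspr gene of the members. From each marker list it took the most abundant gene, which was Cnp for oligodendrocytes. Outside this rule stand 4 low neuron markers, rows named beside the rank of Cntnap2, rows of long span and the Cntnap5 genes. Symbols were matched to rows directly or, for 4 listed genes, through RefSeq synonyms. Promoter sequences came from RefSeq on GRCm38.p6, and no coordinate was carried between builds. Python 3.11.15, pandas 2.3.3, numpy 2.4.6 and matplotlib 3.10.9 were used.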

Additional observations from a re-analysis of the deposited data

How the results depend on the processing

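Cntnap2 was higher in ULAs in all 10 alternatives in which it was fitted and passed in 9 of them. It met the minimum of 1 RPKM through ULAs (mean 4.16 RPKM, against 0.387 in DLAs) and was chosen with these values known. The count therefore shows only how its call depends on the settings. The number of members that passed as higher in ULAs was 0 in place of 1 without the minimum on RPKM and 0 with a minimum of 5 RPKM, which leaves Cntnap2 out, and the number higher in DLAs was 0 throughout. The log2 difference of Cntnap2 ran from 1.79 to 3.12. In 6 other ways of ordering the members, 7 to 10 of the 10 kept their place.

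Over all rows, 100 were higher in ULAs and 128 in DLAs. Without the brain as a replicate block, 23 and 18 passed, and of the ligands and receptors 0 and 0, of the axonal domain proteins 0 higher in DLAs, and of the oligodendrocyte markers 1 in place of 9. The fit without the block changed no member's call. Without the minimum on RPKM 0 and 0 rows passed, with 1124 and 1675 at an unadjusted p under 0.05, and so 0 genes of each list. Without the variance trend 65 and 79 rows passed, and with the correction for mRNA length 75 were higher in DLAs. Quantile normalization gave 138 and 103 rows, a split that leans the other way.

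Leaving out each brain gave 104 to 426 rows higher in ULAs and 126 to 687 higher in DLAs, the highest of each without brain 3. The ligands and receptors higher in ULAs then numbered 0 to 4, and the axonal domain proteins 0 to 1 in each direction. The ligand higher in ULAs, Aplp2, was lost, leaving 0, with median centring, with the length correction and without the trend. The axonal domain protein higher in DLAs, Mag, was lost, leaving 0, with a minimum of 5 RPKM, quantile normalization, the length correction and no trend. With a minimum of 5 RPKM, 5 oligodendrocyte markers passed. Aplp1, at -0.01, was at 0.03 after quantile normalization and 0.04 with the length correction, and from -0.11 to 0.14 with each brain left out. The cause of these changes was not tested, apart from rows that a higher minimum leaves out. For the members under 1 RPKM the number of reads, at most 36 in a library, limits any comparison.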

Other observations

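Cntnap5b, a Caspr gene outside the 10 members that was chosen after its values were seen, was below Cntnap2 in every ULA library and above it in every DLA library. In brains 1, 2 and 3 its ULA values were 2.51, 2.59 and 2.83 RPKM, against 2.84, 2.57 and 3.39 RPKM for DLAs. Its layers overlapped, with a log2 difference of -0.11 and an SE of 0.14. Its mean over the 6 libraries, 2.79 RPKM, was above that of Cntnap2, 2.28 RPKM. The related Cntnap5a and Cntnap5c stayed at or below 0.29 RPKM in every library.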
